A study of Mus musculus with 8 samples.

Results

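Metallothioneins are small cysteine-rich proteins that bind zinc, copper and cadmium, and with the zinc transporters they set how much free zinc a cell holds. The Slc30a (ZnT) proteins move zinc out of the cytosol, across the plasma membrane or into vesicles and the Golgi, and the Slc39a (ZIP) proteins move it into the cytosol. The zinc-sensing transcription factor MTF1 binds metal response elements in DNA and drives the metallothionein genes and Slc30a1 when zinc rises.

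The genes of this system were read in mouse embryonic fibroblasts undergoing direct cardiac reprogramming: the metallothioneins Mt1 and Mt2, the factor Mtf1, the exporters Slc30a1, Slc30a4 and Slc30a5, and the importers Slc39a1, Slc39a6, Slc39a10 and Slc39a14. These 10 of 50600 listed genes were matched by symbol, each of which has 1 entry per table, and the symbols were selected on their fold changes in the same tables, which were known when the set was made. Their fold changes and p-values are therefore a description and support nothing further. All 10 were among the 14830 genes that the DMSO comparison gives an adjusted p.

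The fibroblasts came from C57BL/6 embryos, and every group carried retroviruses for the GHMT factors, which are Gata4, Hand2, Mef2c and Tbx5. The groups had 2 libraries each, 8 in all, from cells held for 7 days in 1% DMSO, in 5 µM I-CBP112, in 5 µM C646 or in 0.1% ethanol. CBP and p300 are histone acetyltransferases: I-CBP112 occupies their bromodomain, and C646 inhibits their catalytic activity. The labels name no solvent for either inhibitor, and any effect of it is part of their values. The deposited values are the authors' comparisons of DMSO, I-CBP112 and C646 with a common reference, taken here as ethanol because it is the group that has no table. No value of a single library was used, so levels are group means rebuilt from the authors' mean over all libraries and the 3 fold changes, and errors after ± are standard errors (SE) on the log2 scale. The libraries of every group carry the same pair of numbers, 2 and 3, in their titles. Nothing in the labels says what a number stands for or that the libraries of a group came from separate cultures, so the errors may be technical.

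Both metallothionein genes were highest with I-CBP112, intermediate with DMSO, and at about the ethanol level with C646. Mt1 (ENSMUSG00000031765.8, GRCm38 chromosome 8, 94179082 to 94180327, plus strand) had rebuilt means of 8857 with DMSO, 14586 with I-CBP112 and 5624 normalized counts with C646, against 5796 with ethanol. In the authors' deposited table for I-CBP112 its log2 fold change was 1.33 ± 0.20, which is 2.52 times the ethanol level (adjusted p = 4.88e-09, DESeq2). With DMSO the authors' deposited table has 0.61 ± 0.20, or 1.53 times (adjusted p = 0.0205, DESeq2). With C646 it has -0.04 ± 0.20, and the 95% interval of that fold runs from 0.737 to 1.28 times, from the SE of the authors' deposited table. Of all tested genes, 0.668% had a higher fold change than Mt1 with I-CBP112, against 6.09% with DMSO.

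Mt2 (ENSMUSG00000031762.7, chromosome 8, 94172664 to 94173568, plus strand) starts 6418 bases before Mt1 on the same strand. Its rebuilt means were 3796 with DMSO, 5698 with I-CBP112 and 2191 normalized counts with C646, against 2253 with ethanol. The authors' deposited table for I-CBP112 gives a log2 fold change of 1.34 ± 0.20 (2.53 times, adjusted p = 1.15e-09, DESeq2) and that for DMSO 0.75 ± 0.20 (1.69 times, adjusted p = 0.00181, DESeq2). For C646 the authors' deposited table has -0.04 ± 0.20. The ratio of Mt1 to Mt2 counts was 2.33 with DMSO, 2.56 with I-CBP112, 2.57 with C646 and 2.57 with ethanol. So the pair kept nearly the same proportion in the 4 groups while its level differed by 2.59 times for Mt1 and 2.60 times for Mt2 between the highest group and the lowest.

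**Figure D1:**
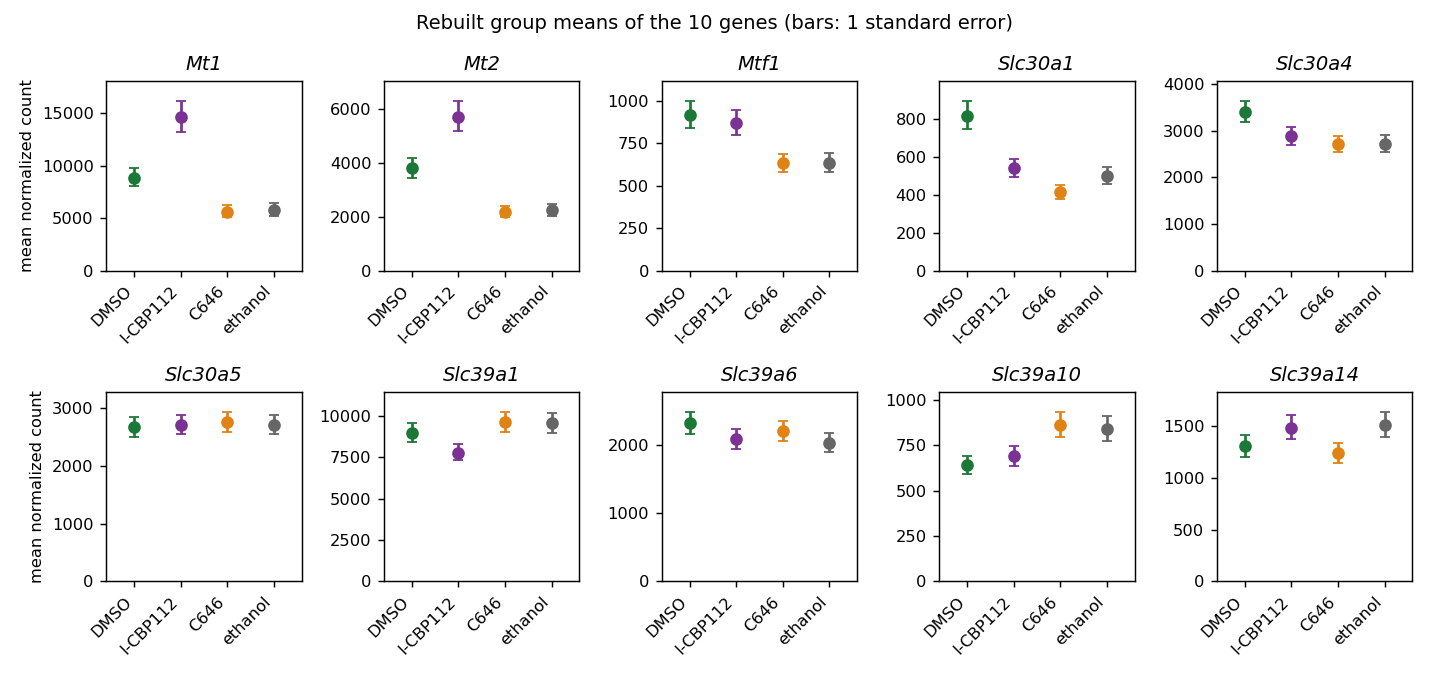
Rebuilt mean normalized count (vertical axes, from 0, a scale per gene) of the 10 genes with DMSO, I-CBP112, C646 and ethanol; points are group means of 2 libraries and bars 1 SE rebuilt from the tables. Mt1 and Mt2 are highest with I-CBP112 (14586 and 5698) and Slc30a1 with DMSO (816), while Slc30a5 lies between 2673 and 2761 in every group.

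Of the 519 stretches of 31 bases in the listed Mt1 transcript, 0 occurred in a transcript of any other gene of GENCODE M21, Mt2 included (31 bases is the default length that kallisto matches). Of 481 such stretches in Mt2, 267 also lie in Gm45774, an antisense RNA on the opposite strand that overlaps Mt2 by 749 bases. The sources used here do not say whether strand was used in the counting, so reads of Mt2 and Gm45774 cannot be told apart over that stretch. Gm45774 had a mean of 89.1 normalized counts, 2.56% of that of Mt2. The authors' deposited table lists it at 1.09 ± 0.37 with DMSO and 1.52 ± 0.36 with I-CBP112.

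Stretches before an annotated start of Mt1, Mt2 and Slc30a1, genes that MTF1 is known to activate, are shown because these are the genes with the strongest differences here. They are the 250 bases before the RefSeq start site (GRCm38.p6, plus strand for all 3), at chr8:94178839-94179088 for Mt1, chr8:94172368-94172617 for Mt2 and chr1:191906531-191906780 for Slc30a1. Capitals mark each match, on either strand, to the core of the metal response element, searched as TGCACNC and TGCGCNC, with N for any base.
Mt1: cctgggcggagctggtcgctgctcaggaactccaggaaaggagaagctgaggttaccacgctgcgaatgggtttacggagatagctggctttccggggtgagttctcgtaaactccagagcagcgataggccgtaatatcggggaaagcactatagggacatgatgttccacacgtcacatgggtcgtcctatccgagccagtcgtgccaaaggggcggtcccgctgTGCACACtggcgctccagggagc
Mt2: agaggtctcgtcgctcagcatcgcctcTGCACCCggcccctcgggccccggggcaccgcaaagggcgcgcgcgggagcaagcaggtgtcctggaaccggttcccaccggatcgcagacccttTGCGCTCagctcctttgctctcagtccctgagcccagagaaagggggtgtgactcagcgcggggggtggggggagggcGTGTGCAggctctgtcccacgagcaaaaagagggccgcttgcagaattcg
Slc30a1: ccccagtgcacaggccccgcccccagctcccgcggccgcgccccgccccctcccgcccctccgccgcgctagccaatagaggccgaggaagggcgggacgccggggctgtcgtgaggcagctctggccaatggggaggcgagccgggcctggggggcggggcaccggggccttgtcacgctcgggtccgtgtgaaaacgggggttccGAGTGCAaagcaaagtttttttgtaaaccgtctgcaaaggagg
The Mt2 stretch holds 3 matches, 2 on the plus and 1 on the minus strand, and the Mt1 and Slc30a1 stretches 1 each. When the 50 bases after the start are added, the counts become 3 for Mt1, 4 for Mt2 and 2 for Slc30a1. The added Mt1 matches begin 2 and 20 bases after the start, so the printed stretch does not hold all matches near it. The Mt2 stretch ends at 94172617, before the start of 94172664 given above for the gene. Whether transcription began at these annotated starts in these cells was not tested, so a printed stretch need not be the whole promoter. Of 32851 RefSeq promoter windows of that longer size, 25.7% hold at least 1 match, 7.11% at least 2, 1.97% at least 3 and 0.517% at least 4. Among the 10 genes 8 had a promoter that was used here, and 5 of these 8 held a match, Slc30a4 with 3 and Slc30a5 with 1 besides those printed. Of 18 other metallothionein and zinc transporter genes with a promoter used here, 10 held a match, so having 1 is not particular to the 10 genes. A gene was counted when any of its start sites held a match, whereas the shares over all promoters are of windows. Mtf1, Slc39a1 and both start sites of Slc39a10 held 0. Slc30a4 and Slc30a5, with matches, did not pass the test in any of the 3 comparisons. A match is a string of letters and does not show binding.

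Mtf1 itself (ENSMUSG00000028890.13, chromosome 4, 124802104 to 124849800, plus strand) was higher with DMSO. It had rebuilt means of 918 with DMSO, 869 with I-CBP112 and 633 normalized counts with C646, against 635 with ethanol. In the authors' deposited table the log2 fold change was 0.53 ± 0.17 with DMSO (adjusted p = 0.0177, DESeq2). With I-CBP112 the authors' deposited table has 0.45 ± 0.17 (adjusted p = 0.0778, DESeq2), not past the threshold of 0.05, with a 95% interval of 1.08 to 1.73 times. I-CBP112 and DMSO differed in Mtf1 by less than their error, at -0.08 ± 0.17 for I-CBP112 minus DMSO. An overlapping gene on the opposite strand, 1110065P20Rik, shares 3.59% of the 31-base stretches of Mtf1. It had a mean of 695 normalized counts, 91.0% of that of Mtf1. Its log2 fold change with DMSO in the authors' deposited table was -0.25 ± 0.19.

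Among the exporters, Slc30a1 parted from the metallothioneins. It encodes ZnT1, the plasma membrane protein that carries zinc out of the cell (ENSMUSG00000037434.7, chromosome 1, 191906767 to 191913247, plus strand). Its rebuilt means were 816 with DMSO, 539.6 with I-CBP112 and 413 normalized counts with C646, against 499.7 with ethanol. It rose with DMSO, by 0.71 ± 0.19 in the authors' deposited table (1.63 times, adjusted p = 0.00186, DESeq2). With I-CBP112, where Mt1 and Mt2 were highest, the authors' deposited table has 0.11 ± 0.19 (adjusted p = 0.867, DESeq2), a 95% interval of 0.837 to 1.39 times. With C646 it has -0.27 ± 0.19 in the authors' deposited table (unadjusted p = 0.147, DESeq2). An antisense RNA, 1700034H15Rik, shares 8.42% of its 31-base stretches and had a mean of 23.9 normalized counts.

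Slc30a4 (ENSMUSG00000005802.12, chromosome 2, 122681233 to 122702663, minus strand) encodes ZnT4, a vesicular transporter known for loading zinc into milk in the mouse. Its rebuilt means were 3407 normalized counts with DMSO, 2884 with I-CBP112, 2715 with C646 and 2722 with ethanol. The DMSO value in the authors' deposited table was 0.32 ± 0.13 (adjusted p = 0.0727, DESeq2), just short of the threshold. Slc30a5 (ENSMUSG00000021629.9, chromosome 13, 100802648 to 100833427, minus strand) encodes ZnT5, which with ZnT6 brings zinc into the early secretory pathway for enzymes such as alkaline phosphatase. It was the flattest of the 10, with rebuilt means of 2673, 2715 and 2761 normalized counts with DMSO, I-CBP112 and C646 and 2719.6 with ethanol, 1.03 times between highest and lowest. Its 95% intervals against ethanol run from 0.828 to 1.17 times with DMSO, from 0.841 to 1.18 with I-CBP112 and from 0.856 to 1.20 with C646.

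None of the 4 importers passed the test in any of the 3 comparisons with ethanol. Slc39a1 (ENSMUSG00000052310.9, chromosome 3, 90248172 to 90253612, plus strand) encodes ZIP1, a widely expressed plasma membrane importer. Its rebuilt means were 8974 with DMSO, 7779 with I-CBP112 and 9607 normalized counts with C646, against 9553 with ethanol. The lowest group was I-CBP112, at -0.30 ± 0.13 in the authors' deposited table (adjusted p = 0.141, DESeq2). Slc39a10 (ENSMUSG00000025986.6, chromosome 1, 46807544 to 46892852, minus strand) encodes ZIP10, whose gene MTF1 is known to repress in the mouse. It had rebuilt means of 639 with DMSO, 691 with I-CBP112 and 861 normalized counts with C646, against 839.6 with ethanol. In the authors' deposited table it stood at -0.39 ± 0.16 with DMSO (adjusted p = 0.0823, DESeq2) and -0.28 ± 0.16 with I-CBP112 (adjusted p = 0.354, DESeq2).

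Slc39a14 (ENSMUSG00000022094.15, chromosome 14, 70303469 to 70351425, minus strand) encodes ZIP14, which also carries iron and manganese. It had rebuilt means of 1303 with DMSO, 1481 with I-CBP112 and 1233 normalized counts with C646, against 1506 with ethanol. Its value with C646, -0.29 ± 0.16 in the authors' deposited table, had the smallest unadjusted p of the 10 in that comparison (0.0783, DESeq2). Slc39a6, for ZIP6, had rebuilt means of 2319, 2084 and 2198 normalized counts with DMSO, I-CBP112 and C646 and 2034 with ethanol. When these means were ordered from high to low (DMSO, C646, I-CBP112, ethanol) no neighbours differed by as much as 1 SE. The outermost groups, DMSO and ethanol, differed by 0.19 ± 0.14 in the authors' deposited table (adjusted p = 0.424, DESeq2).

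Read together, 4 of the 10 genes were higher with DMSO and 0 lower, where 8.07% of 14830 tested genes were higher and 7.90% lower, 16.0% in all. With I-CBP112 2 were higher and 0 lower, where 4.65% of tested genes were higher and 5.25% lower, 9.90% in all. With C646 0 of 10 passed by the DESeq2 adjusted p, where 0.00584% of 34250 genes passed. At an unadjusted p below 0.05 (DESeq2) it was also 0 of 10, where 111 of 14830 tested genes passed. That is well below the share of 0.05 that calibrated p-values would give if no gene differed. So 0 of 10 with C646 is not a result about these genes. The median log2 fold change of the 10 was 0.26 with DMSO, 0.06 with I-CBP112 and -0.0032 under C646, and over all tested genes 0.03, 0.01 and 0.0031. The 3 comparisons use the same ethanol libraries, so a deviation there touches all of them. When the Wald statistics were read against a t distribution (4 degrees of freedom), 0 of 10 passed in any of these comparisons. That distribution is wider for every gene, and the share of all tested genes that pass under it is not given here. The count is therefore not a result about these 10 genes in particular.

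The ethanol mean cancels in differences between treatments. They were computed as differences of the deposited fold changes with a rebuilt SE, and adjusted over all 14830 genes. I-CBP112 against DMSO gave 2 genes higher, Mt1 at 0.72 ± 0.20 (adjusted p = 0.00932) and Mt2 at 0.59 ± 0.20 (adjusted p = 0.0435), from normal tests over all genes. Slc30a1 was lower in that comparison, at -0.60 ± 0.19 (adjusted p = 0.0239). Of all tested genes, 4.31% were higher and 2.66% lower with I-CBP112 than with DMSO. The metallothioneins and Slc30a1 thus differed between these 2 treatments in opposite directions.

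C646 and I-CBP112, both at 5 µM for 7 days, differed in the metallothioneins. Mt1 was at -1.37 ± 0.20 (adjusted p = 1.21e-09) and Mt2 at -1.38 ± 0.20 (adjusted p = 3.03e-10) for C646 minus I-CBP112, 0.386 and 0.384 times the I-CBP112 level. Of all tested genes, 5.11% were higher and 4.69% lower in that comparison. The other 8 genes did not pass it, Mtf1 being nearest at -0.46 ± 0.17 (adjusted p = 0.0745). C646 against DMSO gave 4 genes lower and 0 higher, where 7.86% of tested genes were lower and 7.98% higher. Slc30a1 stood furthest, at -0.98 ± 0.19 or 0.507 times the DMSO level (adjusted p = 4.61e-06). Mt2 was at -0.79 ± 0.20, Mt1 at -0.66 ± 0.20 and Mtf1 at -0.53 ± 0.17. Slc39a10 lay at the threshold in the other direction, at 0.43 ± 0.16 (adjusted p = 0.0502), and passed it when the groups were scaled to equal totals or centred on the median gene. With the larger SE that does not take account of the ethanol libraries cancelling, 0 of 3 genes remained for I-CBP112 against DMSO and 1, Slc30a1, of 4 for C646 against DMSO.

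**Figure D2:**
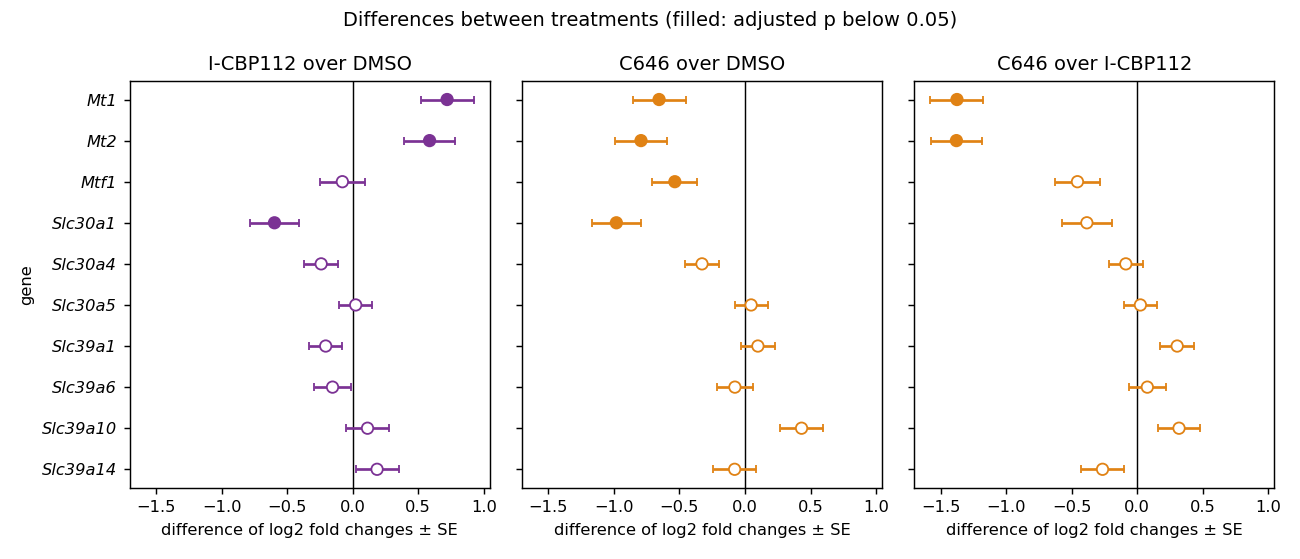
Differences of log2 fold changes (horizontal axis, ± rebuilt SE) of the 10 genes between treatments: I-CBP112 over DMSO, C646 over DMSO and C646 over I-CBP112. Filled points have an adjusted p below 0.05; Mt1 and Mt2 are filled in all 3 panels and Slc30a1 in the panels against DMSO.

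The metallothioneins also had the highest levels of the 10 genes when counts were divided by transcript length. In mean normalized counts Slc39a1 was highest, at 8978, against 8716 for Mt1 and 3484 for Mt2. Per kilobase of the 1 transcript that the tables list per gene, the mean over all groups was 15876 normalized counts for Mt1, 6818 for Mt2 and 3798 for Slc39a1. It was 855 for Slc30a5, 556 for Slc39a6, 537 for Slc30a4 and 280 for Slc39a14, and 138 for Slc39a10, 108 for Slc30a1 and 101 for Mtf1. Mt1 had a higher mean normalized count than 96.3% of tested genes. The spread between libraries implied by the SEs, as a coefficient of variation in the model, was 14.0% for Mt1 and 13.5% for Mt2, the widest of the 10, and 8.53% for Slc30a5, the narrowest. The median of all tested genes was 12.2%. Of the 31-base stretches of Slc39a1, 26.4% also occur in its pseudogene Slc39a1-ps, which had a mean of 0.913 normalized counts.

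The rest of the metallothionein, Slc30a and Slc39a families and the zinc transporter Tmem163 were mostly near the ethanol level or hardly detected. Of these 20 genes 9 were tested. With DMSO 1 of 9 rose and 0 fell, and with I-CBP112 0 rose and 2 fell. Of all tested genes 16.0% passed with DMSO and 9.90% with I-CBP112, in either direction. With C646 0 passed by the DESeq2 adjusted p, and also 0 at an unadjusted p below 0.05. So few of all tested genes passed there, 111 of 14830, that 0 of 9 is not a result about these genes. The riser with DMSO was Slc30a9, at 0.36 ± 0.13 in the authors' deposited table (adjusted p = 0.0311, DESeq2), which no longer passed after centring on the median gene or adjustment over every gene with a p-value. The ones that fell with I-CBP112 were Slc39a13, for the Golgi protein ZIP13, and Slc30a7, for the Golgi protein ZnT7. In the authors' deposited table Slc39a13 was at -0.47 ± 0.15 (adjusted p = 0.0191) and Slc30a7 at -0.44 ± 0.12 (adjusted p = 0.00694, both DESeq2).

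Slc39a13 and Slc30a7 stood at -0.04 ± 0.15 and 0.10 ± 0.12 with DMSO in the authors' deposited table. Both were also lower with I-CBP112 than with DMSO in the rebuilt test over all genes (adjusted p = 0.0479 for Slc39a13 and 0.000616 for Slc30a7). The other 11 genes had means of at most 13.4 normalized counts, Slc39a2 the highest. Mt3, the metallothionein known from brain, had a mean of 2.92 and Mt4, known from squamous epithelium, was listed at 0. So Mt1 and Mt2 were the metallothioneins with counts to test. Across the whole Slc39a family, 10 of 14 genes were tested: 0 rose and 0 fell with DMSO, and 0 rose and 1 fell with I-CBP112. Of the Slc30a family 6 of 10 were tested: 2 rose and 0 fell with DMSO, and 0 rose and 1 fell with I-CBP112. The shares over all tested genes were 8.07% up and 7.90% down with DMSO, and 4.65% up and 5.25% down with I-CBP112. Rebuilt counts summed over the tested Slc39a genes were 27586 with DMSO, 24938 with I-CBP112 and 28124 under C646, against 27920 with ethanol.

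**Figure D3:**
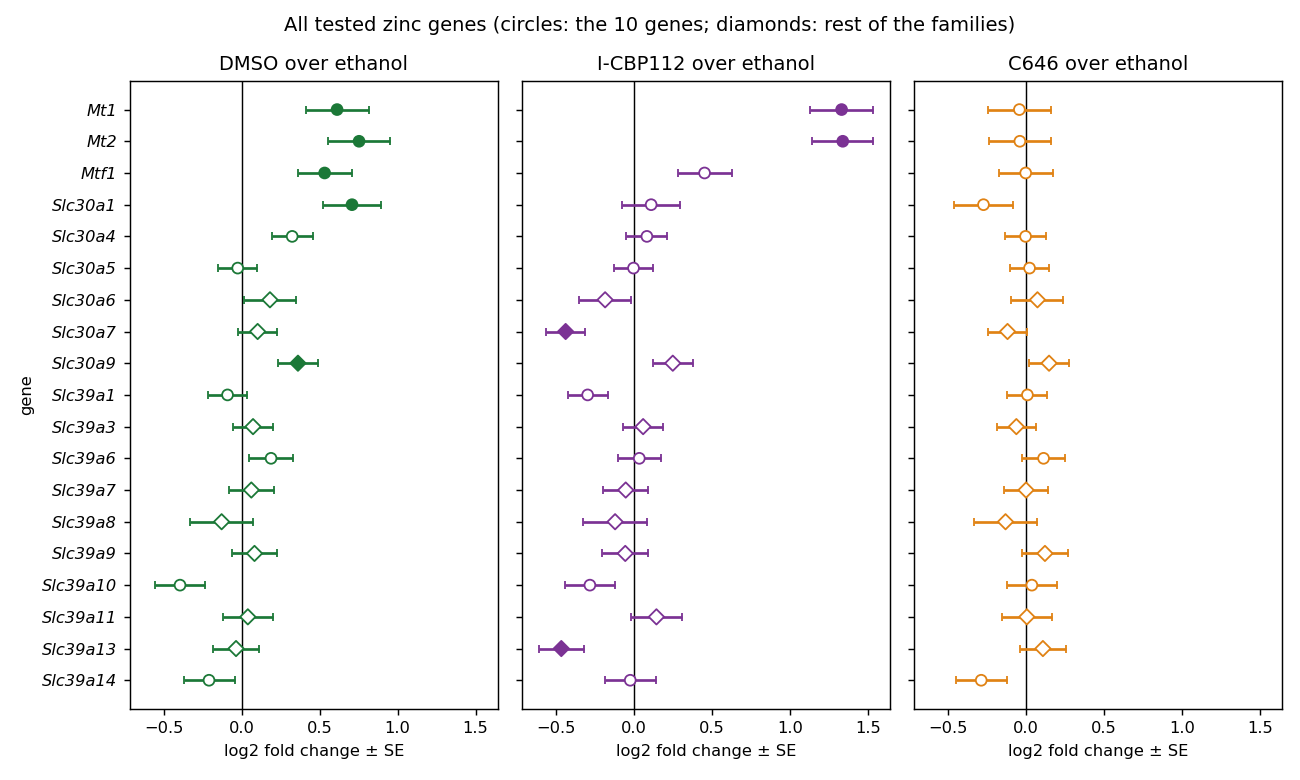
Log2 fold change over ethanol (horizontal axis, ± SE of the authors' deposited tables) of the 19 tested zinc genes with DMSO, I-CBP112 and C646; circles are the 10 genes, diamonds the rest of the families, and filled symbols have an adjusted p below 0.05. Filled symbols are 5 with DMSO, 4 with I-CBP112 and 0 under C646.

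The genes beside Mt1 and Mt2 were read for comparison. Within 200 kb of the pair on chromosome 8, 6 other tested genes are described. Over all tested genes 8.07% rose and 7.90% fell with DMSO, and 4.65% rose and 5.25% fell with I-CBP112. With DMSO 2 of the 6 rose and 0 fell, Gm45774 and Ogfod1, a ribosomal prolyl hydroxylase, the second at 0.47 ± 0.16 in the authors' deposited table. With I-CBP112 1 of the 6 rose, Gm45774, which overlaps Mt2, and 0 fell. There Ogfod1 had 0.11 ± 0.16, the cleavage factor subunit Nudt21 0.02 ± 0.15, the ciliary BBSome subunit Bbs2 -0.30 ± 0.21, the nucleoporin Nup93 -0.19 ± 0.15 and the kidney salt transporter Slc12a3 0.08 ± 0.58 in the authors' deposited table. Nup93 is the nearest tested gene that does not overlap the pair, 35.5 kb from the Mt1 start.

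**Figure D4:**
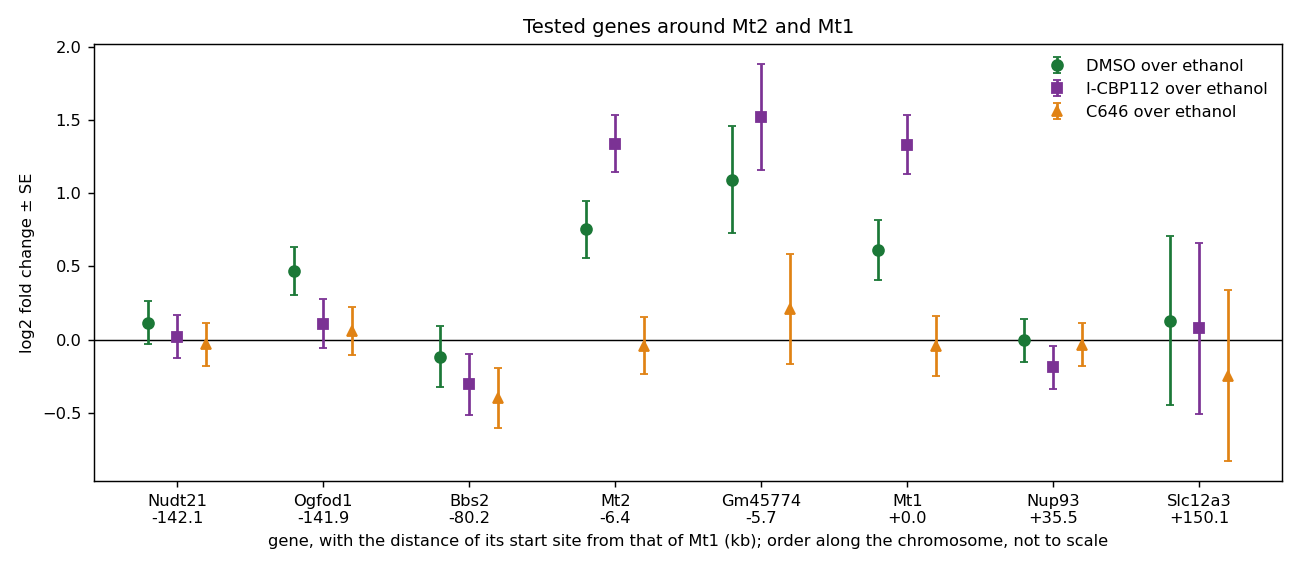
Log2 fold change over ethanol (vertical axis, ± SE of the authors' deposited tables) of 8 tested genes around Mt2 and Mt1, in chromosome order with the distance of each start site from that of Mt1 in kb. With I-CBP112 Mt2, Gm45774 and Mt1 lie at 1.34, 1.52 and 1.33, and the other genes between -0.30 and 0.11.

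Genes with like patterns were sought among 12088 tested genes with a mean of 50 normalized counts or more, leaving out those named only by a clone or predicted-gene symbol, by the Euclidean distance between their 3 log2 fold changes. Nearest to Mt1 were Tro at a distance of 0.029, Rtn1 at 0.090, Cystm1 at 0.14, Mt2 at 0.14 and Gca at 0.16. Nearest to Mt2 were Rtn1 at 0.12, Actc1, cardiac actin, at 0.13, Tro at 0.14, Mt1 at 0.14 and Bdh1 at 0.24. The distance is over 3 comparisons that use the same ethanol libraries, and it ignores the errors.

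Marker levels moved with the same treatments. Rebuilt counts summed over 8 cardiomyocyte markers were 307316 with DMSO, 300850 with I-CBP112 and 111073 under C646, against 109624 with ethanol; 7 of 8 rose with DMSO and 8 of 8 with I-CBP112. Summed over 10 fibroblast markers they were 654068 with DMSO, 623621 with I-CBP112 and 1004260 under C646, against 1020360 with ethanol; 8 of 10 fell with DMSO and 6 of 10 with I-CBP112. With C646 0 of these 18 passed, where 0.00584% of 34250 genes passed. Over all tested genes 8.07% rose and 7.90% fell with DMSO, and 4.65% rose and 5.25% fell with I-CBP112. All 10 fibroblast markers were detected, but so were all 8 cardiomyocyte and all 6 macrophage markers, so detection alone does not tell the cell type. Of 6 macrophage markers 0 passed with DMSO and 2 fell with I-CBP112, and their sum was 3324, 2623 and 3003 normalized counts with DMSO, I-CBP112 and C646 and 3188 with ethanol. Only 2 of 5 endothelial and 1 of 6 epithelial markers were tested, of which 1 endothelial marker and the epithelial one, Krt14, fell with DMSO and with I-CBP112. The tested endothelial markers, Kdr and Tek, had means of 450 and 338 normalized counts and Krt14 one of 28.5. Among the markers not tested, Epcam and Cdh5 had means of 0.524 and 6.49. The part of these shifts in the metallothionein and transporter values was not tested, and in bulk RNA fewer cells of a type and less RNA per cell cannot be told apart.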

How the data were processed

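RNA was measured by sequencing in 8 libraries, 2 for each of 4 treatments. Per the submitters' processing notes, reads were quantified with kallisto 0.43.1 against GRCm38.p5 and genes tested with DESeq2 (no version stated). The 3 deposited tables hold the authors' own comparisons. The deposited signal per gene is the mean normalized count over all libraries, and the deposited log2 values are the fold change and its standard error. The Wald statistic is a score of the authors, and each p-value and adjusted p is the authors' own. Adjusted p-values cover 34250 genes for C646 and 14830 for each of the other comparisons. Depth per library is not given there, so precision rests on the standard errors (median 0.185).

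Group means were rebuilt from the mean and the 3 fold changes. Differences between treatments used a standard error rebuilt from 1 dispersion per gene, averaged over the 3 deposited standard errors. The same formula came within 1% of the deposited standard errors for 97.6%, 97.8% and 97.6% of tested genes with DMSO, I-CBP112 and C646. The step was tested on simulated data. P-values were adjusted by Benjamini-Hochberg. Motifs and 31-base stretches were counted in RefSeq promoters and GENCODE M21 transcripts. Promoters of Slc39a6 and Slc39a14 were not analysed here. Used were Python 3.11.15, pandas 2.3.3 and scipy 1.17.1.

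The 10 genes, the gene lists and the tests were chosen with earlier results of these data known. All 10 genes are named, as are tested genes within 200 kb of Mt1 and Mt2, apart from 1 more gene in that window that is not reported here, and the 5 nearest patterns of each. Any list gene past adjusted p 0.05 in at least 1 comparison could be named, and examples are given. Low markers, Kdr, Slc39a2, Mt3, Mt4 and the partners of shared stretches were named after their values were seen. Alternatives were adjustment over the same or over every gene, a mean count of 100 or more, a t distribution, 2 scalings, a larger standard error and a shorter promoter window.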

Additional observations from a re-analysis of the deposited data

How the results depend on the processing

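No paired analysis was possible because, although every group has libraries numbered 2 and 3, the tables hold no value of a single library, and leaving out a library was not possible for the same reason. Adjustment over the same genes in all tables, a mean count of 100 or more, and scaling to equal totals or centring on the median gene kept 4, 2 and 0 of the 10 genes past the threshold with DMSO, I-CBP112 and C646, as did adjustment over every gene with a p-value. Scaling to totals shifted the log2 fold changes by 0.02, -0.02 and -0.0088 with DMSO, I-CBP112 and C646. Under a t distribution (4 degrees of freedom) the counts became 0 in each comparison for the 10 genes, for the rest of the zinc families (1 with DMSO and 2 with I-CBP112 as deposited) and for these together with the copper, iron, glucocorticoid, stress and zinc enzyme lists (17 and 16 as deposited); the cause is the wider distribution by construction. The single zinc family gene past the test with DMSO was also lost, to 0, when every gene with a p-value was adjusted over and when the median gene was centred on. With the larger standard error, 0 genes passed for I-CBP112 against DMSO, 1 for C646 against DMSO and 2, as before, for C646 against I-CBP112. The share of all tested genes that pass with it is not given here. Scaling to totals turned the sign of 3 values that did not pass the test, to 0.0060 for Mtf1 and 0.0052 for Slc30a4 with C646 and to 0.019 for Slc30a5 with I-CBP112. Summing Mt1 and Mt2 moved neither by as much as 1 SE. In the shorter promoter window 5 of the 10 genes still held a match, as did 8 of the 18 other zinc family genes and 21.4% of all promoters. Genes were counted by any of their start sites and all promoters by window.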

Other observations

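Some genes of other metal and stress lists moved with DMSO and I-CBP112, in both directions. By adjusted p, 16.0% of all tested genes passed with DMSO and 9.90% with I-CBP112. With C646 0 of these lists had a gene past the DESeq2 test. None had one at an unadjusted p below 0.05 either, where only 111 of 14830 tested genes passed, so this is not a result about these lists. Of 14 tested iron genes 3 rose and 2 fell with DMSO, and 3 rose and 1 fell with I-CBP112. Tfrc, the transferrin receptor, was at 0.77 ± 0.13 with DMSO and 0.47 ± 0.13 with I-CBP112 in the authors' deposited table. Fth1, the ferritin heavy chain, was at 0.40 ± 0.12 and 0.38 ± 0.12, and Trf, transferrin, at -1.62 ± 0.19 and -1.24 ± 0.19 in the authors' deposited table. Slc40a1, the iron exporter ferroportin, rose with DMSO, at 0.75 ± 0.21, and had -0.21 ± 0.21 with I-CBP112 in the authors' deposited table. Like Slc30a1 it was lower with I-CBP112 than with DMSO (adjusted p = 0.000227) and lower with C646 than with DMSO (adjusted p = 0.000146) in the rebuilt test over all genes. Of 14 tested copper genes 1 rose and 3 fell with DMSO and 1 rose and 2 fell with I-CBP112. The copper chaperone Atox1 rose with both, at 0.36 ± 0.12 in the authors' deposited table, and the plasma ferroxidase Cp fell with both, at -0.38 ± 0.14 with DMSO and -0.54 ± 0.14 with I-CBP112 in the authors' deposited table.

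Metallothionein genes also respond to glucocorticoids, heavy metals and oxidative stress. Of 10 glucocorticoid response genes 1 rose and 1 fell with each of DMSO and I-CBP112, where 16.0% and 9.90% of all tested genes passed in either direction. Their part in the metallothionein values was not tested. Fkbp5, a chaperone of the glucocorticoid receptor, was at 0.58 ± 0.14 with DMSO and 0.42 ± 0.14 with I-CBP112, and Cebpd at -0.38 ± 0.13 and -0.56 ± 0.13, in the authors' deposited table. Of 14 heavy metal and oxidative stress genes 0 rose and 1 fell with DMSO, and 1 rose and 1 fell with I-CBP112. The small heat shock protein gene Hspb1 was at 0.60 ± 0.12 with I-CBP112 and the cystine transporter gene Slc7a11 at -1.26 ± 0.27 with DMSO and -1.23 ± 0.27 with I-CBP112 in the authors' deposited table. Of 11 tested secreted or membrane zinc enzymes 1 rose and 3 fell with DMSO and 1 rose and 2 fell with I-CBP112, Alpl, tissue alkaline phosphatase, at -1.88 ± 0.25 and -1.15 ± 0.25 and Enpp1 at 1.01 ± 0.20 and 1.00 ± 0.20 in the authors' deposited table.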
